A study of Mus musculus with 8 samples.

Results

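The 10 genes described here, Slc2a1, Slc7a5, Slc38a5, Mfsd2a, Slco1a4, Slco1c1, Abcb1a, Abcg2, Cldn5 and Ocln, encode transporters and tight junction proteins of the blood-brain barrier. They were chosen by name from the 17143 genes of a single-cell RNA-seq table of mouse hippocampus, and all 10 were present in it. Hippocampal cells came from 8 a/a wildtype mice aged 5 months. The dams of 4 mice drank water with 32 ppm Pb-acetate from 2 weeks before mating until the end of lactation, and the dams of the 4 control mice did not. All offspring had Pb-free water after weaning. Each group held 2 females (F1 and F2) and 2 males (M1 and M2), and 1 male and 1 female were kept from a litter, so that mice of opposite sex may be littermates. The labels do not say which. They do not give the litter of any mouse, so p-values here treat the 8 mice as independent.

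The blood-brain barrier is formed by endothelial cells that are joined by tight junctions and have few transport vesicles, so that nutrients enter the brain through dedicated carriers and many drugs are pumped back into the blood. Wnt signalling through beta-catenin maintains this program in brain endothelium, and pericytes contribute to it. In the choroid plexus the vessels are leaky and the epithelium forms the barrier, with its own claudins and transporters. Developmental lead exposure has long been studied for damage to the brain's vessels and to the choroid plexus.

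The table held 5258 cells, of which 5175 were kept, with 211 to 1157 cells and 1749079 to 8508064 unique molecular identifiers (UMIs) per mouse. The labels give an aim of 3000 to 5000 cells per sample, which is above every count in the table. The 10 genes and the barrier lists were left out of the genes used for clustering. Cell classes were named from leading marker genes, because no cell annotation was used. The capillary-venous endothelial-like class had 637 cells (32 to 138 per mouse), with Vwf, Car4 and Ctla2a among its leading genes. Slc38a5, itself among the 10 genes, ranked first of these leading genes and served to find the cluster, and Slc7a5 was among them too. The arterial endothelial-like class had 473 cells (19 to 126 per mouse), led by Alpl, Sema3g, Cytl1 and Bmx. The mural-like class had 465 cells in 3 clusters, of which 2 were pericyte-like (156 and 123 cells, both with Vtn, Kcnj8 and Atp13a5 among their leading genes) and 1 smooth muscle-like (186 cells, led by Tagln, Acta2 and Myh11). A choroid plexus-like class had 95 cells, led by Prlr, Kl, Clic6 and Sostdc1. A further cluster of 210 cells with endothelial genes was led by hemoglobin genes and was left unnamed and out of these classes. Among the kept cells, 32 barcodes occurred in 2 or more libraries and 9 in 3 or more. They covered 91 cells, 16 in the capillary-venous class, 12 in the arterial and 22 in the mural class, and leaving these cells out changed no call for the 10 genes.

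Endothelial transcripts were also counted outside the endothelium. In the first pericyte-like cluster, whose cells had a median of 10076 UMIs against 5994 for all cells, the summed level of 37 endothelial markers was 23670.2 to 29517 counts per 1000000 UMIs (CPM) per mouse. In smooth muscle-like cells, with a median of 11221 UMIs, it was 17760.1 to 27868 CPM. In the second pericyte-like cluster, with a median of 3929 UMIs, it was 6869 to 9514 CPM. The capillary-venous class itself had 33050.5 to 37856 CPM. None of the 37 markers was at 0 in any of these classes. Values in mural and choroid plexus cells are therefore compared with those of 6 endothelial markers (Pecam1, Cdh5, Flt1, Egfl7, Emcn and Ly6c1).

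The first question the design raises is whether the barrier genes of the adult offspring differed after developmental Pb exposure. None of the 10 genes passed the test in capillary-venous, arterial or mural cells. The test was edgeR's quasi-likelihood test on counts summed per mouse, with sex as a covariate and Benjamini-Hochberg adjustment over all genes. The background was 0% of the 6391 genes tested in capillary-venous, 6124 in arterial and 7151 in mural cells. At an unadjusted p under 0.05, the background was 4.05%, 4.75% and 3.58% of genes, and among the 10 genes this held for Slco1a4 in mural cells only. Pb and control mice overlapped for all 10 genes in all 3 classes, where 2.86%, 2.94% and 2.31% of all genes did not overlap. DESeq2 called 0 genes in capillary-venous and arterial cells and 1 in mural cells, Hsp90aa1, a chaperone. In the plot of exposure differences, 29 of the 30 intervals include 0.

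**Figure D1:**
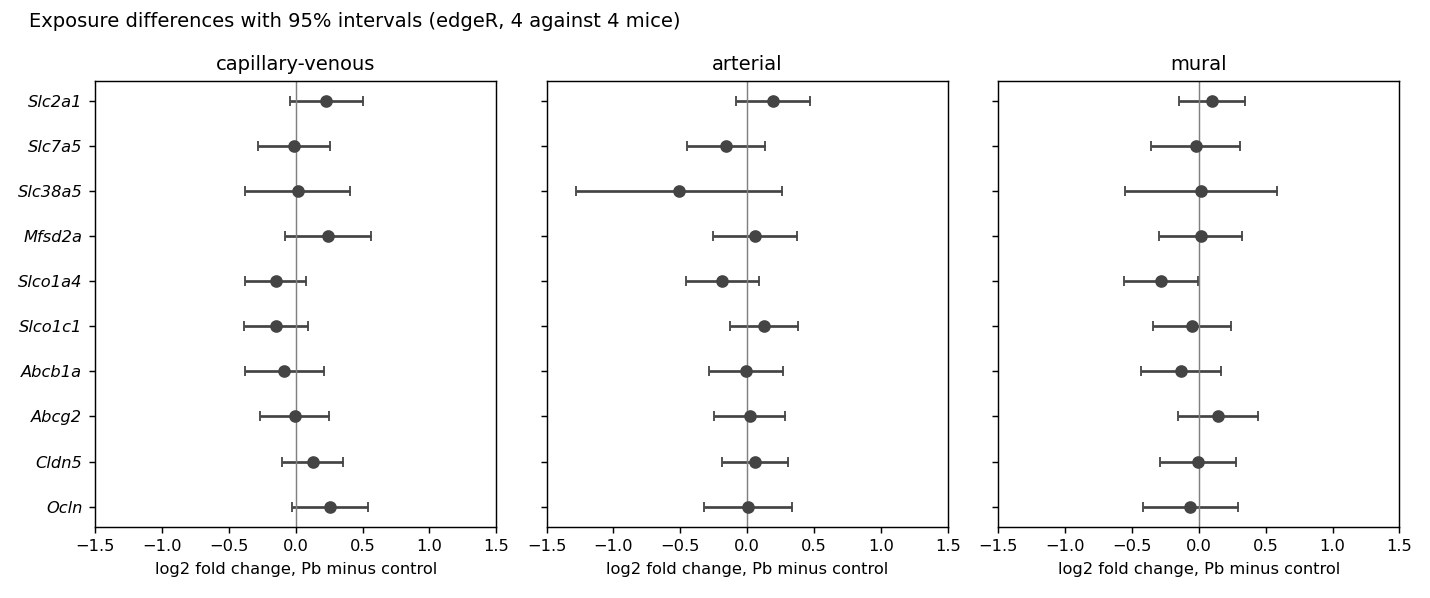
Log2 fold change of each barrier gene, Pb minus control, in 3 vascular classes (panels); points are edgeR estimates from 4 Pb and 4 control mice and bars are 95% intervals. The widest interval belongs to Slc38a5 in arterial cells, -1.28 to 0.26, and the only one that leaves out 0 is Slco1a4 in mural cells.

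The nutrient carriers came first. Values per mouse are in the order F1, F2, M1 and M2, in CPM. Slc2a1 (4:119108711-119137983, GRCm38) encodes GLUT1, the glucose transporter of the barrier. In capillary-venous cells it was at 2309, 2119.5, 2238 and 1764 CPM in the Pb mice and 1822, 2458, 1649.6 and 1321 CPM in the control mice. The highest and the lowest value were both in control mice. The log2 fold change, Pb minus control, was 0.23 (SE 0.13, 95% interval -0.04 to 0.51). In arterial cells the Pb mice had 2319, 2183, 2371 and 2125 CPM and the control mice 1985, 2313, 2047 and 1433 CPM. Control M2 was again the lowest mouse, and the fold change was 0.19 (SE 0.13, 95% interval -0.08 to 0.47).

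Slc7a5 (8:121881150-121907694) encodes LAT1, which carries large neutral amino acids. Its capillary-venous levels were 819.8, 1156, 934 and 1098 CPM in the Pb mice and 1038, 1123, 941 and 916 CPM in the control mice. The control values lay within the span of the Pb values, with a log2 fold change of -0.01 (SE 0.13, 95% interval -0.28 to 0.26). In arterial cells the levels were 674, 528, 487 and 526 CPM with Pb and 664, 767, 589 and 425 CPM without. Here the Pb values lay within the control span, and the fold change was -0.16 (SE 0.14, 95% interval -0.45 to 0.13).

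Slc38a5 (X:8271133-8280179) encodes SNAT5, a sodium-coupled glutamine and histidine transporter. The Pb mice had 247, 135, 258 and 214 CPM in capillary-venous cells and the control mice 159, 169.8, 324 and 210.3 CPM. The highest mouse was control M1 and the lowest Pb F2, and the log2 fold change was 0.02 (SE 0.19, 95% interval -0.38 to 0.41). In arterial cells Slc38a5 was at 55.8, 13.3, 32.0 and 32.5 CPM in Pb mice and 19.3, 62.0, 69.6 and 17.9 CPM in control mice. The lowest 3 arterial values rest on 3, 4 and 5 UMIs, in control F1, control M2 and Pb F2. The fold change of -0.51 (SE 0.37, 95% interval -1.28 to 0.26) has the widest interval of the 10 genes.

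The next members carry lipids, bile acids, drugs and thyroid hormone. Mfsd2a (4:122946850-122961188) encodes a transporter of lysophosphatidylcholine with docosahexaenoic acid, and also keeps vesicle transport low in brain endothelium. Capillary-venous levels were 363, 309.7, 400.0 and 305 CPM in the Pb mice and 386, 287, 247 and 259 CPM in the control mice. The second highest mouse of all was control F1, so the groups overlapped, with a log2 fold change of 0.24 (SE 0.15, 95% interval -0.08 to 0.56). Arterial levels were 371, 264, 325 and 315 CPM with Pb and 367, 343, 270.2 and 246 CPM without, and the fold change was 0.06 (SE 0.15, 95% interval -0.25 to 0.37).

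Slco1a4 (6:141805440-141856199) and Slco1c1 (6:141524368-141570177) lie on the same chromosome and encode organic anion transporters, Slco1a4 with a broad range of substrates and Slco1c1 with thyroxine as its best known one. Slco1a4 has close relatives, Slco1a5 and Slco1a6, and Abcb1a has Abcb1b. The labels do not say how reads shared between such genes were counted, so these levels are uncertain to that extent. The 250 bases before the RefSeq start of both genes (GRCm38.p6) are shown because their patterns over cell classes part further on. Slco1a4 is at chr6:141856221-141856470 on the minus strand and Slco1c1 at chr6:141524104-141524353 on the plus strand, each printed along its own strand, and neither stretch overlaps an annotated exon. Capitals mark a match to a TCF/LEF core motif, the sequence through which Wnt signalling acts on genes, searched on both strands as the letters CTTTG followed by AA, AT, TA or TT.
Slco1a4: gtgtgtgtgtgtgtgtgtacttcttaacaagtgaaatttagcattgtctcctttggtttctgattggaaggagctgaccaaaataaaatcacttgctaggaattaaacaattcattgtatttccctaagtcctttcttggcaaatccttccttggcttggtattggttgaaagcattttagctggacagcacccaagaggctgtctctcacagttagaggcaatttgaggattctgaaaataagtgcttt
Slco1c1: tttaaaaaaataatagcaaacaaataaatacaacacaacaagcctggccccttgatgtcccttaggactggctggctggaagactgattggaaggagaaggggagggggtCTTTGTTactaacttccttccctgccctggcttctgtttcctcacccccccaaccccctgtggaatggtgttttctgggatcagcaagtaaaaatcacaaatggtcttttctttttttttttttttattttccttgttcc
Slco1c1 held 1 match and Slco1a4 none in this window. Such a match was present in 14.8% of all 32851 RefSeq promoter stretches of this length, and among the 9 barrier genes found in the table Abcb1a had 2 and the other 7 had none, over every start listed. The Abcb1a stretch, at chr5:8566841-8567090, precedes a RefSeq start far before the gene position 5:8660077-8748575 given for it here, so its matches do not lie directly before that position. The search describes letters only and was set against no binding data.

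In capillary-venous cells Slco1a4 was at 1769, 1955, 1844 and 1955 CPM in the Pb mice and 1923, 2009, 1974 and 2388 CPM in the control mice. Control M2 was the highest mouse, and the 2 groups overlapped around 1923 to 1955 CPM. The log2 fold change was -0.15 (SE 0.11, 95% interval -0.38 to 0.08), and in arterial cells, with 1568, 1415, 1236 and 1401 CPM against 1308, 1658, 1471 and 1836 CPM, it was -0.19 (SE 0.13, 95% interval -0.45 to 0.08). Slco1c1 stood at 808, 883, 904 and 826 CPM in capillary-venous cells of Pb mice and at 1070, 927, 910.0 and 864 CPM in those of control mice. Its fold change was -0.15 (SE 0.12, 95% interval -0.39 to 0.10). The arterial values had the opposite sign, with 922, 814, 956 and 953 CPM in Pb and 728, 852, 899 and 793 CPM in control mice and a fold change of 0.13 (SE 0.12, 95% interval -0.13 to 0.38). The difference between both classes in the Pb effect on Slco1c1, tested as an interaction, was 0.26 (SE 0.11), with an unadjusted edgeR p of 0.0174 and an adjusted p of 0.98. It did not pass.

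Efflux pumps return drugs and toxins to the blood. Abcb1a (5:8660077-8748575) encodes P-glycoprotein. Its capillary-venous levels were 898, 1132, 926 and 841 CPM in the Pb mice and 1096, 890.3, 828 and 1179.7 CPM in the control mice. Both the highest and the lowest mouse were controls, M2 and M1, and the log2 fold change was -0.08 (SE 0.14, 95% interval -0.38 to 0.21). Arterial levels were 849, 932, 782 and 808 CPM with Pb and 774, 799.9, 768 and 994 CPM without, a fold change of -0.01 (SE 0.13, 95% interval -0.28 to 0.27). Abcg2 (6:58584523-58695676) encodes the breast cancer resistance protein, an exporter with overlapping substrates. The Pb mice had 741, 908, 782 and 867 CPM in capillary-venous cells and the control mice 908, 860.3, 694 and 836 CPM. These were nearly the same spans, and the fold change was -0.01 (SE 0.12, 95% interval -0.26 to 0.25). In arterial cells, 572, 553, 524 and 485 CPM in Pb mice faced 587, 567, 495 and 434 CPM in control mice, with a fold change of 0.02 (SE 0.13, 95% interval -0.25 to 0.28).

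Cldn5 (16:18776847-18778262) encodes claudin-5, the main claudin of brain endothelial junctions. Capillary-venous levels were 3998, 4539, 4830.1 and 5924 CPM in the Pb mice and 3946, 3594, 5587 and 4483 CPM in the control mice. Pb M2 and control M1 were the highest, and the log2 fold change was 0.13 (SE 0.11, 95% interval -0.10 to 0.36). In arterial cells Cldn5 was at 3351, 2799.9, 3680.1 and 3841 CPM with Pb and 2701, 3157, 4026 and 3028 CPM without, with a fold change of 0.06 (SE 0.12, 95% interval -0.19 to 0.30). Ocln (13:100496507-100552718) encodes occludin, a membrane protein of the same junctions. In capillary-venous cells it was at 252, 236, 257 and 279 CPM in Pb mice and 243, 203, 211 and 197 CPM in control mice. Only control F1 lay among the Pb mice. The fold change of 0.26 (SE 0.14, 95% interval -0.03 to 0.54) was the largest of the 10 genes in this class, with an unadjusted edgeR p of 0.0762 and an adjusted p of 1.000. In arterial cells, 211, 163, 194 and 183 CPM in Pb and 148, 219, 189.9 and 166 CPM in control mice gave 0.003 (SE 0.16, 95% interval -0.33 to 0.33).

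**Figure D2:**
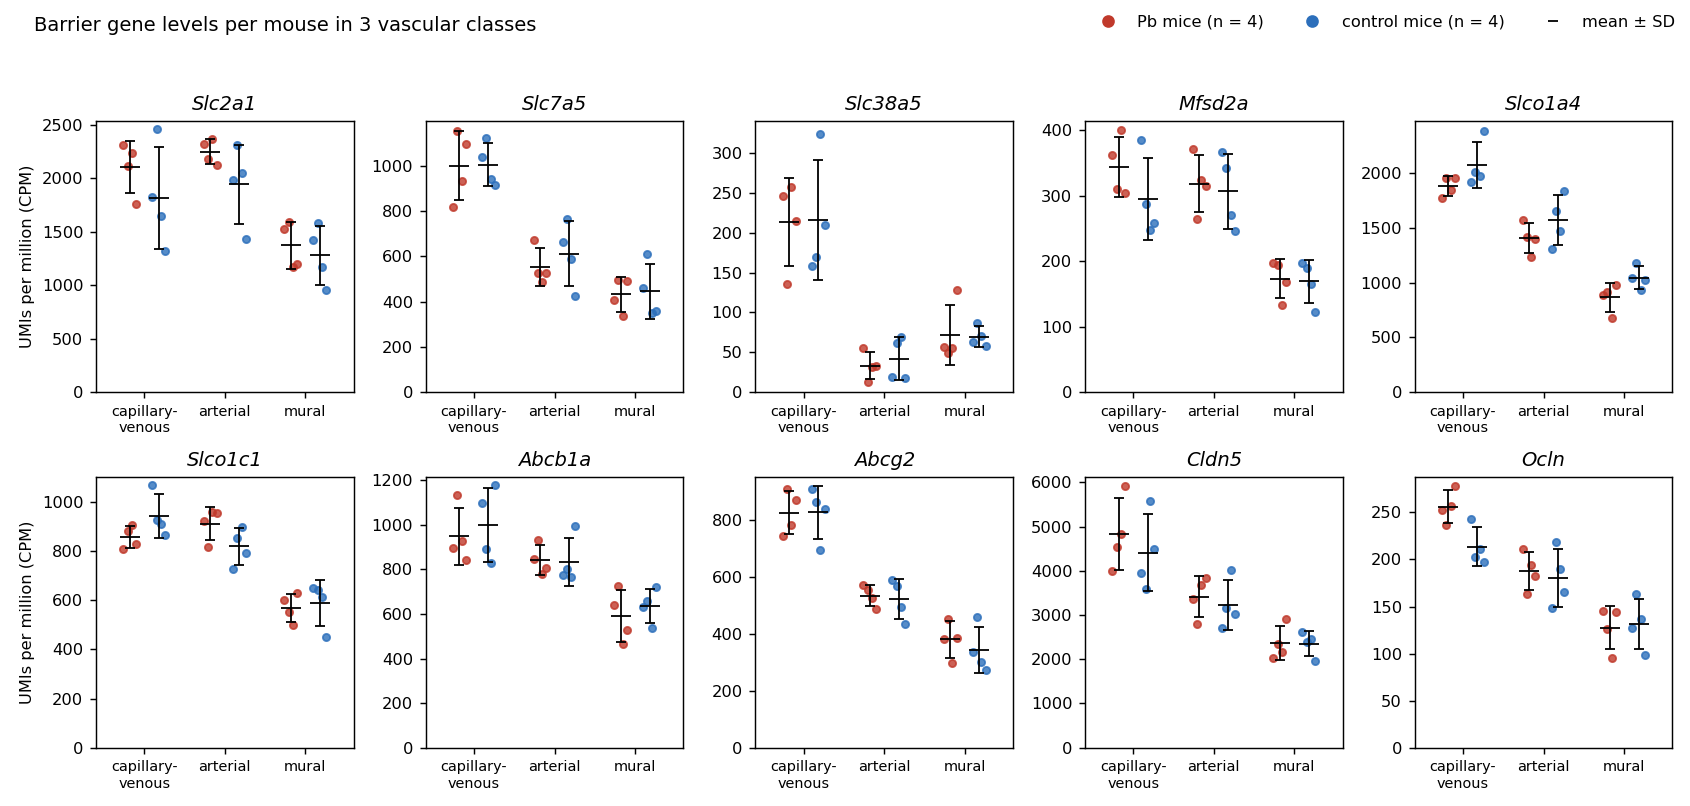
Level of each barrier gene in CPM (y axis, from 0) per mouse in capillary-venous, arterial and mural cells, for 4 Pb and 4 control mice; bars are the mean ± SD. Pb and control points overlap in every panel and class. Slc38a5, Slc7a5 and Abcg2 are lower in arterial than in capillary-venous cells in all 8 mice, with no overlap of the classes. Slco1a4, Abcb1a and Cldn5 are also lower in all 8 mice, with overlap.

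In mural cells the transcripts of these genes came with endothelial markers, as given above, and their part in the values was not tested. Slco1a4 had 886, 918, 680.3 and 981 CPM in Pb mice and 1042, 1184, 932 and 1026 CPM in control mice. Pb M2 lay above control M1, so the groups overlapped. The log2 fold change was -0.28 (SE 0.13, 95% interval -0.56 to -0.0032), with an unadjusted edgeR p of 0.0477 and an adjusted p that rounds to 1.00. The other 9 genes had fold changes from -0.14 for Abcb1a to 0.14 for Abcg2. The pooled clusters differed in level, with Slco1a4 at a mean of 69.2% of the capillary-venous level in the first pericyte-like and 37.9% in the smooth muscle-like cluster. Their shares differed by mouse. These 2 clusters gave 102052 and 273718 UMIs in control F1, and 268866 and 108786 UMIs in control F2. The part of this mix in the mural estimates was not tested. The summed endothelial markers of mural cells were at 20539.7 to 25428 CPM in Pb mice and 18620.2 to 25955 CPM in control mice.

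Choroid plexus cells reached 10 in 3 mice only, with 38 cells in Pb F1, 10 in control F2 and 46 in control M2, so no Pb test was made there. Pb M1 had 1 cell and the other 4 mice none. Slco1c1 was at 341 CPM in Pb F1, 374 CPM in control F2 and 306 CPM in control M2. The single Pb mouse lay between the 2 controls. Ocln was at 96.6, 64.4 and 76.9 CPM in the same order. Here the Pb mouse was the highest of the 3.

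The Pb effect was also compared between females and males and between arterial and capillary-venous cells. None of the 10 genes passed either interaction test, against a background of 0% in each of the 4 fits. The largest sex difference among the 10 was that of Slc38a5 in mural cells, 0.93 (SE 0.51), with an unadjusted edgeR p of 0.0868. The interaction is male minus female, and Pb M2 stood at 128 CPM against 48.7 to 56.3 CPM in the other 3 Pb mice.

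The 5 lists of other barrier genes gave no call between Pb and control mice either. Of 29 further solute carriers and efflux pumps, 22 were tested in capillary-venous cells, with a median log2 fold change of -0.10 against -0.002 over all genes. The lowest unadjusted p values belonged to Slc16a1, the lactate carrier MCT1, at -0.40 (SE 0.12), and Slc30a1, a zinc exporter, at -0.42 (SE 0.14). Slc16a1 was at 567 ± 62.4 CPM (SD, n = 4) in Pb and 744 ± 99.9 CPM (SD, n = 4) in control mice. Neither passed the adjusted test. In arterial cells they belonged to Slc38a2 at -0.35 (SE 0.17) and Slc16a1 at -0.37 (SE 0.22), and in mural cells Slco3a1 at 0.37 (SE 0.16) and Slc40a1 at -0.24 (SE 0.15).

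Among 12 tested junction genes the estimates ran from -0.27 to 0.15, with a median of -0.02. The lowest p belonged to the scaffold gene Tjp1, at -0.27 (SE 0.16). The 9 vesicle and receptor genes had a median of -0.02. Tfrc, the transferrin receptor that brings iron across the barrier, had -0.21 (SE 0.18) in capillary-venous, -0.42 (SE 0.18) in arterial and -0.52 (SE 0.16) in mural cells. Its unadjusted edgeR p was 0.262, 0.0323 and 0.00471, and no adjusted p passed. In the list of Wnt pathway genes and transcription factors (18 tested), the median was -0.16 in capillary-venous cells. Tcf7, a Wnt transcription factor, had -0.60 (SE 0.21) and Tnfrsf19 had -0.44 (SE 0.20). In arterial cells Reck, part of the receptor complex for Wnt7 ligands, had -0.64 (SE 0.22) and the Wnt co-receptor Lrp6 0.53 (SE 0.22). In mural cells Axin2, a Wnt feedback gene, had -0.49 (SE 0.18). None of these passed the adjusted test. The choroid plexus list had 5 genes tested in capillary-venous cells, and plexus markers summed to 56.1 to 16159.8 CPM per mouse in that class. The part of these transcripts in its values was not tested.

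The second comparison set arterial against capillary-venous cells of the same mice, with the mouse as a block. Capillary-venous markers summed to 5389 to 6719 CPM in arterial and 8367 to 9774 CPM in capillary-venous cells. Arterial markers summed to 3609 to 6927 CPM and 842 to 1133 CPM in the same order. In arterial cells 7 of the 10 genes were lower and none was higher, where 6.64% of the 6177 genes tested were lower and 7.67% higher. The 7 were Slc38a5, Slc7a5, Abcg2, Cldn5, Slco1a4, Ocln and Abcb1a. Slc2a1, Mfsd2a and Slco1c1 did not pass. The classes were built from the same cells without these genes, so genes that vary with them took part in the split, and the p-values describe the separation of these clusters. Adding the 10 genes and the barrier lists to the clustering left the other 6 calls, ended that of Abcb1a and made Slc2a1 pass as higher in arterial cells.

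Slc38a5, which also headed the leading genes of the capillary-venous class, had the largest drop. Its 8 capillary-venous values had lowest 135, median 212 and highest 324 CPM, against lowest 13.3, median 32.2 and highest 69.6 CPM in arterial cells. The classes did not overlap, and the log2 difference was -2.45 (SE 0.13) with an adjusted edgeR p of 2.11e-22. Slc7a5 had lowest 819.8, median 989 and highest 1156 CPM in capillary-venous and lowest 425, median 559 and highest 767 CPM in arterial cells. It too was separated without overlap, with a difference of -0.77 (SE 0.06) (adjusted edgeR p 1.16e-14). For Slc2a1, the glucose carrier, the values were lowest 1321, median 1971 and highest 2458 CPM against lowest 1433, median 2154 and highest 2371 CPM. It was higher in arterial cells of 7 of 8 mice, and the difference of 0.11 (SE 0.04) missed the threshold with an adjusted edgeR p of 0.0722. It passed without control F2, at 0.14, and with coarser clusters, at 0.15 (adjusted edgeR p 0.00911). Per 100 UMIs of Slc2a1, Slc7a5 had 52.9 ± 11.2 UMIs in capillary-venous and 28.0 ± 4.50 in arterial cells (SD, n = 8 mice).

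The lipid and anion carriers parted between the classes. Slco1a4 had lowest 1769, median 1955 and highest 2388 CPM in capillary-venous and lowest 1236, median 1443 and highest 1836 CPM in arterial cells. It was lower in arterial cells of 8 of 8 mice, by a log2 difference of -0.40 (SE 0.04) (adjusted edgeR p 1.70e-10). Slco1c1, on the same chromosome and with its promoter stretch shown above, had lowest 808, median 893 and highest 1070 CPM against lowest 728, median 876 and highest 956 CPM. With 5 mice lower and 3 higher, its difference was -0.01 (SE 0.05), with a 95% interval of -0.12 to 0.09. Mfsd2a was lower in arterial cells of 4 mice and higher in the other 4, with a difference of -0.02 (SE 0.07) and an interval of -0.16 to 0.12.

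Both pumps were lower in arterial cells of all 8 mice. Abcg2 had lowest 694, median 848 and highest 908 CPM in capillary-venous and lowest 434, median 538 and highest 587 CPM in arterial cells, without overlap. Its log2 difference was -0.62 (SE 0.06) (adjusted edgeR p 2.85e-13). Abcb1a fell less, from lowest 828, median 912 and highest 1179.7 CPM to lowest 768, median 804 and highest 994 CPM. Its difference was -0.19 (SE 0.05) with an adjusted edgeR p of 0.00487. The call was lost with DESeq2 (adjusted p 0.0558), with the 10 genes and the barrier lists among the clustering genes (0.0898) and with coarser clusters (0.0543).

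Of the junction genes, Cldn5 was lower in arterial cells of 8 of 8 mice and Ocln in 7 of 8. Cldn5 had lowest 3594, median 4511 and highest 5924 CPM against lowest 2701, median 3254 and highest 4026 CPM, a log2 difference of -0.45 (SE 0.04) (adjusted edgeR p 8.93e-13). Ocln had lowest 197, median 239.7 and highest 279 CPM against lowest 148, median 186 and highest 219 CPM, a difference of -0.32 (SE 0.08) (adjusted edgeR p 0.00398), which was lost with DESeq2 (adjusted p 0.0651). The 6 endothelial markers ran from -0.05 for Egfl7 to 0.48 for Ly6c1 in the same fit.

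**Figure D3:**
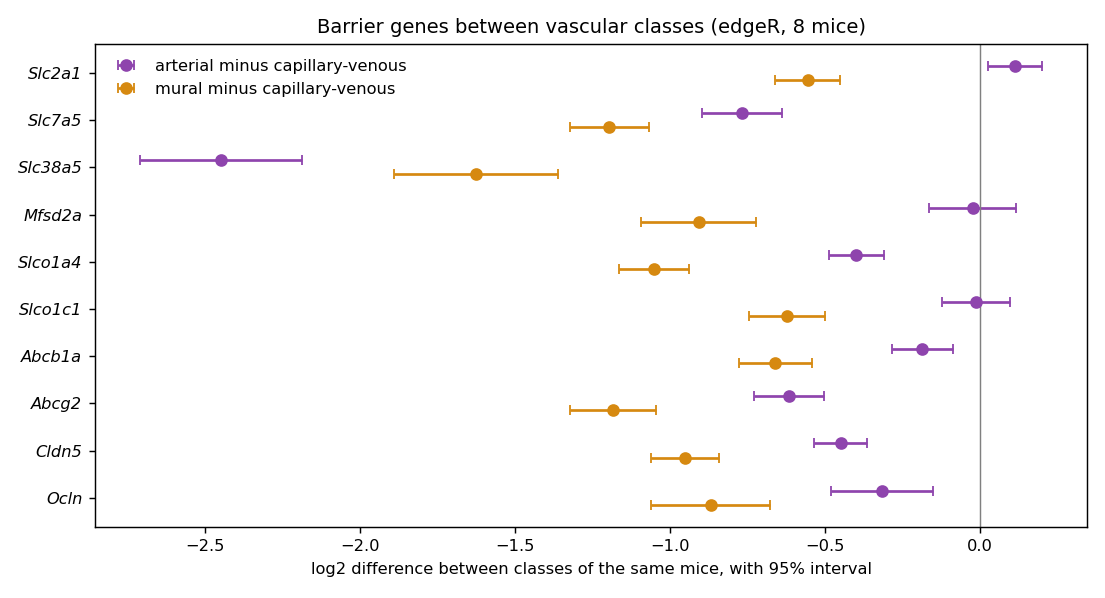
Log2 difference of each barrier gene between arterial or mural cells and capillary-venous cells of the same 8 mice (x axis), as edgeR estimates with 95% intervals. All mural differences and 7 of the arterial ones passed the test below 0, and Slc38a5 is the only gene with a larger drop in arterial than in mural cells.

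Other carriers of the barrier mostly went the same way. Of 22 further solute carriers and pumps tested, 13 were lower and 4 higher in arterial cells, with a median of -0.37 against -0.005 over all genes. Slc39a8, a zinc and manganese importer, had 113 ± 12.9 CPM (SD, n = 8) in capillary-venous and 47.9 ± 8.98 CPM in arterial cells, a log2 difference of -1.27 (SE 0.13). Slc16a1 fell by 1.14 on the log2 scale (SE 0.08), Slc22a8, the organic anion transporter OAT3, by 1.08 (SE 0.07) and Slc38a3, a glutamine carrier, by 0.84 (SE 0.08). Slc40a1, the iron exporter ferroportin, fell by 0.75 (SE 0.08). The 4 higher ones were Abca1, a cholesterol exporter, at 0.58 (SE 0.20), the taurine carrier Slc6a6 at 0.51 (SE 0.05), the amino acid carrier Slc38a2 at 0.43 (SE 0.07) and Slc30a1 at 0.38 (SE 0.08).

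Junction genes beyond Cldn5 and Ocln were called in both directions. Of 12 tested, 3 were lower and 2 higher, with a median of 0.06. Esam, an endothelial adhesion molecule, had -0.39 (SE 0.05), Jam2 had -0.29 (SE 0.07) and Tjp1, the scaffold ZO-1, had -0.26 (SE 0.07). The higher ones were F11r, which encodes JAM-A, at 0.28 (SE 0.08) and Pecam1 at 0.22 (SE 0.06). Among 8 vesicle and receptor genes 4 were lower, with Tfrc at -0.93 (SE 0.09), Insr, the insulin receptor, at -0.39 (SE 0.12), Igf1r at -0.33 (SE 0.05) and Bsg, a chaperone of monocarboxylate carriers, at -0.13 (SE 0.03). Cav1, the coat protein of caveolae, was higher at 0.36 (SE 0.07). In the Wnt and transcription factor list, 3 of 18 were lower, the Wnt effector Lef1 at -0.29 (SE 0.07), the receptor Fzd4 at -0.40 (SE 0.12) and Nkd1, a Wnt feedback gene, at -0.37 (SE 0.09). Sox17 at 0.53 (SE 0.06) and Sox18 at 0.35 (SE 0.07) were higher. Of the 5 choroid plexus genes tested, Slc31a1, a copper importer, was lower at -0.71 (SE 0.10). All values named here had an adjusted edgeR p under the threshold, the highest being that of Abca1 (0.0391).

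In the third comparison, all 10 genes were lower in mural than in capillary-venous cells of all 8 mice, where 16.4% of the 6621 genes tested were lower and 17.2% higher. Differences ran from -0.56 (SE 0.05) for Slc2a1 to -1.62 (SE 0.13) for Slc38a5. The 6 endothelial markers were lower too, from -0.30 for Flt1 to -0.69 for Egfl7, and Slc2a1, Slco1c1 and Abcb1a lay within that range. In the second pericyte-like cluster alone, which reached 10 cells in 4 mice, all 10 genes were lower by more, from -2.45 for Mfsd2a to -4.48 for Slc38a5. There Cldn5 had 445 ± 53.6 CPM (SD, n = 4) and Slc38a5, with 4 UMIs in all, 0 to 27.4 CPM. As a percentage of the capillary-venous level, the 10 genes had means of 4.36% (Slc38a5) to 20.6% (Mfsd2a) in that cluster. The endothelial markers had 16.2% (Cdh5) to 20.3% (Egfl7), apart from Emcn at 78.8%.

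The other mural clusters differed from each other most in the amino acid carriers, and other barrier genes differed too, as given below. In smooth muscle-like cells Slc38a5 was at 17.0 ± 11.9 CPM and in the first pericyte-like cluster at 146 ± 48.1 CPM (SD, n = 7 mice each). Per 100 UMIs of Cldn5, Slc38a5 had 0.786 ± 0.536 UMIs in the first of these and 4.46 ± 0.942 in the second. The endothelial classes had 1.11 ± 0.582 (arterial) and 4.67 ± 1.09 (capillary-venous), with n = 8. For Slc7a5 per 100 Slc2a1 the values were 15.1 ± 3.72 in smooth muscle-like cells and 55.1 ± 7.53 in the first pericyte-like cluster. In both ratios smooth muscle-like cells lay nearer the arterial mean and these pericyte-like cells nearer the capillary-venous one. The second pericyte-like cluster had 2.38 ± 2.70 and 36.0 ± 14.6 (SD, n = 4), nearer the arterial means.

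Over the 6 mice with 10 cells or more in both mural clusters, 9 of the 10 genes were lower in smooth muscle-like than in the first pericyte-like cells in every mouse, the exception being Slc2a1 (4 of 6). Of 6874 genes with a mean of at least 20 CPM in these clusters, 8.44% were lower in every mouse. Among the 6 endothelial markers this held for Emcn, at -0.60 ± 0.33, while Egfl7 was lower in 5 mice, Pecam1 in 4, Flt1 in 2, and Cdh5 and Ly6c1 in 1 each. Emcn also stood apart from the other markers in the second pericyte-like cluster. It was at 78.8% of the capillary-venous level there, against 16.2% (Cdh5) to 20.3% (Egfl7), so it is a weaker reference for pericyte-like cells. The mean log2 difference was -3.01 ± 1.08 for Slc38a5, -1.98 ± 0.33 for Slc7a5 and -0.02 ± 0.09 for Slc2a1 (SD, n = 6, on the log2(CPM + 5) scale). It was -1.11 ± 0.46 for Abcg2, -0.93 ± 0.19 for Slco1a4, -0.78 ± 0.28 for Cldn5, -0.58 ± 0.26 for Abcb1a and -0.34 ± 0.24 for Ocln. For Mfsd2a the difference was -1.19 ± 0.53 between the mural clusters and -0.06 ± 0.17 between the endothelial classes. For Slco1c1 these were -0.65 ± 0.28 and 0.04 ± 0.15, and for the marker Emcn the endothelial value was 0.02 ± 0.14. The summed arterial markers were at 4887 to 6609 CPM in smooth muscle-like and 1265 to 1979 CPM in the first pericyte-like cells, and the capillary-venous markers at 3037 to 4285 and 7155 to 8410 CPM. Their part in the values of the 10 genes was not tested.

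**Figure D4:**
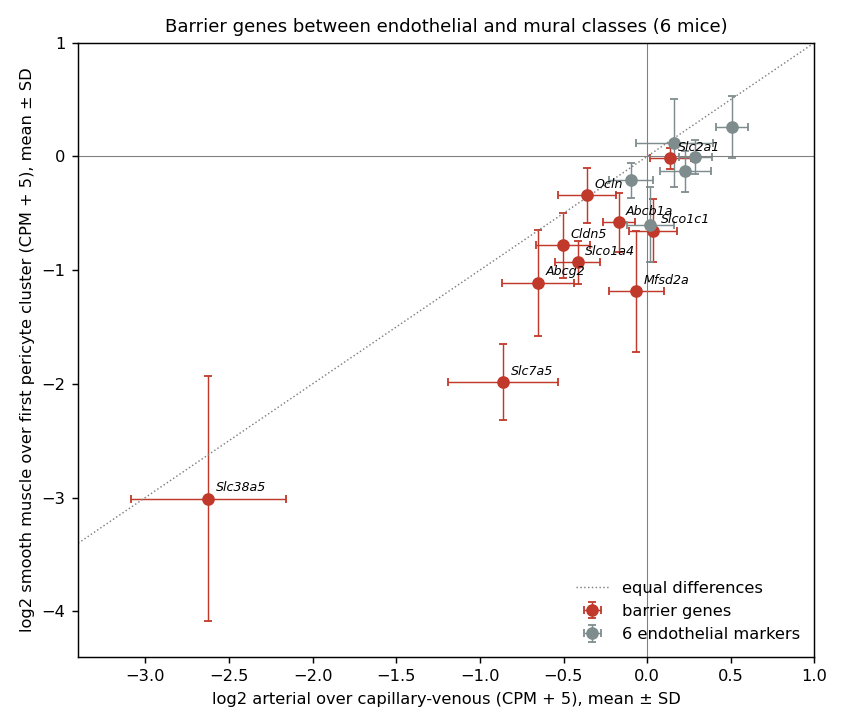
Mean ± SD over 6 mice of the log2 ratio of arterial to capillary-venous level (x axis) and of smooth muscle to first pericyte cluster level (y axis), from CPM + 5, for the barrier genes (red, named) and 6 endothelial markers (grey); the dotted line marks equal differences. Slc38a5 and Slc7a5 are lowest on both axes. Mfsd2a is low on the mural axis only, and Slco1c1 and the marker Emcn show the same to a lesser degree.

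In the lists, most called genes were lower in mural cells, and the shares called higher were near or below the background of 17.2%, except in the small vesicle and choroid plexus lists. Of 23 solute carriers and pumps 15 were lower, led by Slc39a8 at -1.63 (SE 0.15) and the glutamate carrier Slc1a1 at -1.39 (SE 0.11). The 4 higher ones included Slco3a1, an organic anion transporter, at 118 ± 28.2 CPM (SD, n = 8) against 6.40 ± 2.48 CPM in capillary-venous cells, a log2 difference of 4.07 (SE 0.17). Slc1a5, a neutral amino acid exchanger, had 2.80 (SE 0.21), Abcc5 had 0.69 (SE 0.17) and the creatine carrier Slc6a8 had 0.58 (SE 0.17). Jam3 was the 1 higher gene of 13 junction genes, at 2.27 (SE 0.15), with 8 lower. Of 10 vesicle and receptor genes 7 were lower, while Lrp1, a receptor that clears amyloid beta, was higher at 2.55 (SE 0.13). In the Wnt list 7 of 18 were lower, among them Fzd4 at -0.74 (SE 0.11) and Lef1 at -0.74 (SE 0.09), and Tnfrsf21 was higher at 1.20 (SE 0.16). Slc12a2, the sodium, potassium and chloride carrier NKCC1, was higher at 2.28 (SE 0.14) among 6 choroid plexus genes, as was Atp1b1 at 1.62 (SE 0.22), with Slc31a1 lower.

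Outside the vessels, Mfsd2a, Slco1c1 and Ocln each lay above all 6 endothelial markers in every mouse of at least 1 class. In oligodendrocyte-like cells the median of the 6 endothelial markers was 5.79% of the capillary-venous level of the same mouse, and Cldn5 was at 3.98%. Mfsd2a reached 73.0% ± 30.3 (SD, n = 6) in astrocyte-like cells and 64.9% ± 18.0 (SD, n = 5) in oligodendrocyte precursor-like cells, above all 6 markers in 6 of 6 and 5 of 5 mice. Astrocyte-like cells had lowest 134, median 216 and highest 359 CPM, precursor-like cells lowest 114, median 238 and highest 266 CPM and oligodendrocyte-like cells lowest 10.3, median 21.7 and highest 35.4 CPM. The lowest astrocyte-like and precursor-like mice lay above the highest oligodendrocyte-like one. Slc2a1, at 12.8% ± 2.80 (SD, n = 6), was above all 6 markers in 4 of 6 mice in astrocyte-like cells. Other members were below them, Slco1a4 in 7 of 8 mice in oligodendrocyte-like cells, at 3.11% ± 0.925 (SD, n = 8), and Abcb1a in 6 of 8 mice in microglia-like cells, at 3.58% ± 1.45 (SD, n = 8).

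These classes were then tested against oligodendrocyte-like cells of the same mice, a comparison added after the values were seen. In astrocyte-like cells Mfsd2a was higher by a log2 difference of 3.31 (SE 0.19) (adjusted edgeR p 1.01e-22) and Slco1c1 by 2.38 (SE 0.16) (adjusted edgeR p 1.74e-19), where 32.5% of 4508 genes were higher and 34.1% lower. Cldn5 had 0.52 (SE 0.14) in that fit, and the 3 endothelial markers tested had 0.32 (Flt1), 0.53 (Egfl7) and 0.58 (Ly6c1). Slco1c1 stood at 249 ± 57.6 CPM in astrocyte-like cells (SD, n = 6), 28.0% ± 7.95 (SD, n = 6) of the capillary-venous level, while Slco1a4 was at 90.6 ± 47.1 CPM, 4.63% of it. Precursor-like cells had Mfsd2a higher by 2.73 (SE 0.17) (adjusted edgeR p 6.74e-17, n = 5 mice, where 26.9% of 7696 genes were higher and 26.5% lower). Slco1c1 did not pass there, at -0.15 (SE 0.19). Slc2a1 was lower in precursor-like cells, at -0.64 (SE 0.12), and higher in astrocyte-like cells, at 0.55 (SE 0.14), the latter close to the endothelial markers. Slc7a5 was higher in both, at 1.14 (SE 0.25) and 0.97 (SE 0.21), with 7.02% and 8.06% of the capillary-venous level. Both percentages lay within the span of the endothelial marker means of the same class. Slc7a5 was above all 6 markers in 0 of 6 astrocyte-like and 1 of 5 precursor-like mice, and below all 6 in 5 of 8 mice in oligodendrocyte-like cells.

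Choroid plexus-like cells had a median of 20738 UMIs, with 21005 in Pb F1, 6387 in control F2 and 23934.5 in control M2. In this class Slco1c1 and Ocln were at higher percentages than the endothelial markers. Relative to capillary-venous cells of the same mouse they were at 39.3% ± 3.51 (SD, n = 3) and 36.3% ± 3.96 (SD, n = 3), above all 6 endothelial markers in 3 of 3 mice, whose median was 12.4%. Cldn5 was at 8.02% and Abcb1a at 9.39%. Over Pb F1, control F2 and control M2, Cldn5 had 325, 489 and 104 CPM. Flt1 had 259.9, 270.5 and 89.9 CPM in the same mice, while Slco1c1 differed little between them, as given above. Oligodendrocyte-like cells numbered 349 in Pb F1, 118 in control F2 and 24 in control M2. A cluster of 68 cells left unnamed came from control M2 only. Against oligodendrocyte-like cells of these 3 mice Slco1c1 was higher by 2.66 (SE 0.22) and Ocln by 3.08 (SE 0.34) (adjusted edgeR p 2.48e-14 and 1.49e-10), where 26.4% of 8625 genes were higher and 26.1% lower, and the 6 endothelial markers had 0.78 to 1.53. Slc7a5 at 2.12 (SE 0.30), Slco1a4 at 1.96 (SE 0.22) and Abcb1a at 1.77 (SE 0.31) were above that span too, though each was within the span of the markers as a percentage of the capillary-venous level or below it. Slco1a5, whose sequence is close to Slco1a4, was higher as well, at 5.78 (SE 0.89). Of genes chosen after their values were seen, the epithelial claudins were higher too. Cldn2 had 5.16 (SE 0.34) and Cldn3 6.98 (SE 1.15).

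**Figure D5:**
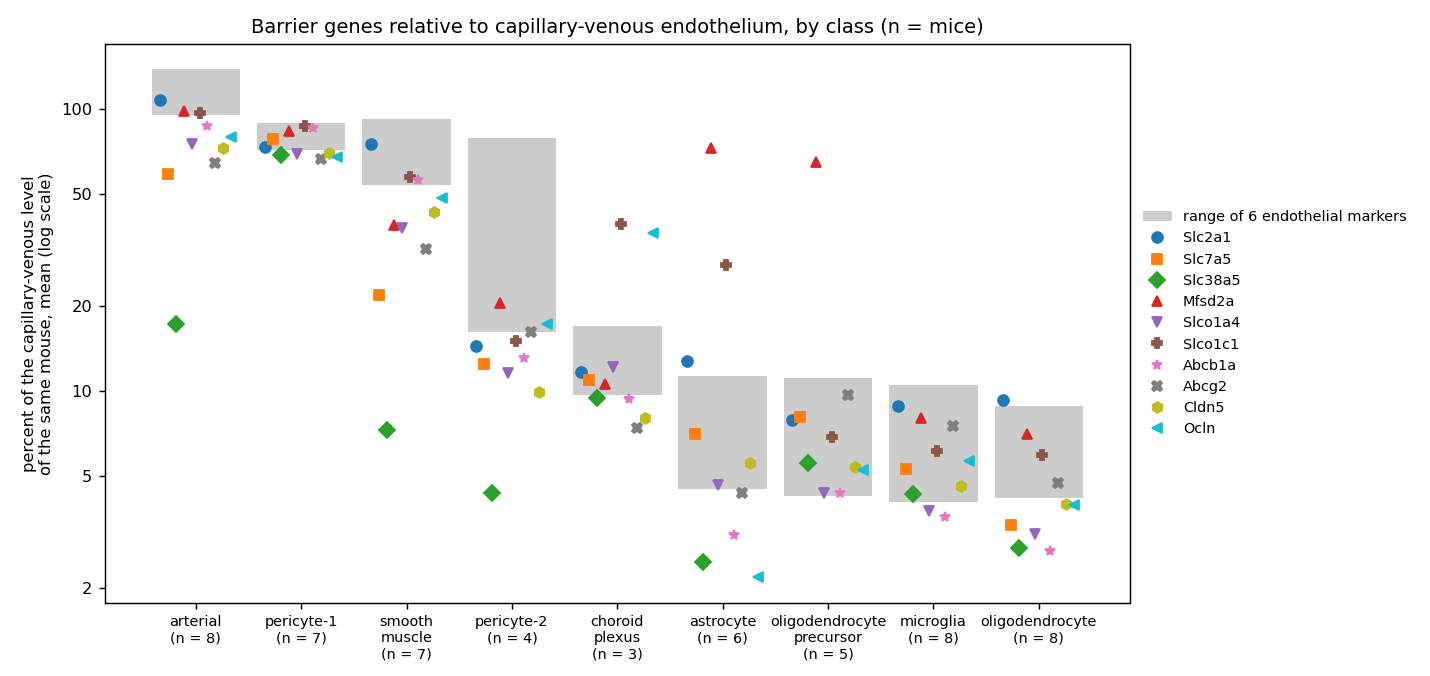
Mean level of each barrier gene as a percentage of the capillary-venous level of the same mouse (y axis, log scale), by cell class with the number of mice; grey boxes span the means of 6 endothelial markers. Mfsd2a in astrocyte-like and precursor-like cells, and Slco1c1 and Ocln in choroid plexus-like cells, lie far above the boxes.

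The genes most like each barrier gene were found by Pearson's r of log2(CPM + 5) over 82 sums of class and mouse from 15 classes, among 12221 genes. Sums share mice, libraries and depth, so r is a description. Cldn5 was most like Egfl7 (r = 0.979) and Slc2a1 most like Ly6c1 (r = 0.963), both endothelial genes. Slco1a4 was most like Bsg (r = 0.978), as was Slco1c1 (r = 0.940). Abcb1a followed Fn1, fibronectin (r = 0.971), and Abcg2 and Slc7a5 followed Itm2a (r = 0.966 and 0.960). Slc38a5 followed Ctla2a (r = 0.887) and Ocln followed Mecom, a transcription factor (r = 0.947). Mfsd2a, the gene also counted in astrocyte-like and precursor-like cells, was most like Jam2 (r = 0.883).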

How the data were processed

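Per the labels' protocols, hippocampi of saline-perfused mice were dissociated with an enzymatic kit at controlled heat, cryopreserved, thawed and run on the 10x Chromium. The deposited table holds raw UMI counts per gene and cell. Per the submitters' processing notes, Cell Ranger and Seurat were used with mm10, and no version, cell filter or counting strand was found in the labels. All deposited cells had at least 999 genes and 1137 UMIs, and every column was matched to a mouse.

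Cells over 20% mitochondrial counts (53) and cells called doublets by Scrublet per mouse (33 called, 30 of them not removed already, 24 in Pb and 6 in control mice) were left out. Cells were clustered with scanpy 1.11.5 (2000 variable genes, 30 components, 15 neighbours, Leiden resolution 1.0, seed 1), without the 10 genes, the 5 barrier lists, sex-linked and mitochondrial genes. Counts were summed per mouse and class (at least 10 cells) and tested with edgeR 4.0.16 (TMM scaling, low-count filter, threshold 0.05), with sex or the mouse in the model. DESeq2 1.42.0, other scaling, no filter, other clusterings, kept doublets and leaving out each mouse were tried as alternatives. Levels are UMIs per 1000000 of a class and mouse; intervals of small counts cover counting error only, and in the endothelial and pooled mural sums depth ran from 155139 UMIs (arterial, control F1) to 992531 (capillary-venous, Pb M1).

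The barrier genes, the lists and the tests were chosen with earlier results of these data known. From each list, up to 5 called genes per direction with the largest differences were named, or the 2 with the lowest p where none was called, and a few genes this rule names are not reported here. Positions are from GENCODE vM21 on GRCm38 and promoter stretches from RefSeq on GRCm38.p6. Slc2a1, Slc7a5 and Abcb1a overlap other annotated genes. Models were tested on simulated data.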

Additional observations from a re-analysis of the deposited data

Results flagged for a closer look

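In 60 groups of 4 mice (10 genes, 3 classes, Pb and control), 2 had 1 mouse far from the other 3, where chance alone gives about 1 in 20 groups. Abcb1a in arterial cells of control M2 was at 994 CPM, with the other control mice at 768 to 799.9 CPM. Slc38a5 in mural cells of Pb M2 was at 128 CPM, with the other Pb mice at 48.7 to 56.3 CPM. The count behind that value was 118 UMIs, and its 95% counting interval of 106 to 153 CPM lay above the values of the other 3. Without Pb M2 the log2 fold change of Slc38a5 in mural cells was -0.40, from 0.02 with all mice, and neither passed the test.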

How the results depend on the processing

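None of the 10 genes passed the Pb test under any alternative run in the 3 classes, and 25 of 180 (capillary-venous), 15 of 169 (arterial) and 26 of 170 (mural) estimates changed sign. The number of genes called rose from 0 to 19, 21 and 30 in capillary-venous, arterial and mural cells without the low-count filter, and to 1 in mural cells with DESeq2. Leaving out 1 mouse at a time gave 0 to 2, 0 to 2 and 0 to 1 called genes, which were none of the 10. They were Kif5a and Ptgds (capillary-venous, without control F2), Gm42726 (capillary-venous and arterial, without control M2), Igfbp3 (arterial, without Pb F2), Hsp90aa1 (arterial, without control F1), Abhd2 and Ptgds (arterial, without control F2) and Hsph1 (mural, without Pb F2). DESeq2 called 494 genes between arterial and capillary-venous cells, where edgeR called 474 and 410, and 1456 between mural and capillary-venous cells, where edgeR called 1140 and 1086.

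Signs that changed with a setting were, in capillary-venous cells, Slc7a5 (no filter 0.00855, members in clustering 0.0263, coarser clusters 0.0297, hemoglobin cluster pooled 0.022), Slc38a5 (no sex term -0.00795, doublets kept -0.0406) and Abcg2 (no filter 0.0144, doublets kept 0.000336, members in clustering 0.0375, coarser clusters 0.00649, hemoglobin cluster pooled 0.000654). In arterial cells they were Abcb1a (no filter 0.0423), Abcg2 (doublets kept -0.0521) and Ocln (median-of-ratios scaling -0.00376, doublets kept -0.0666). In mural cells they were Slc38a5 (DESeq2 -0.00237, members in clustering -0.0601, coarser clusters -0.0136), Mfsd2a (shared barcodes left out -0.0298), Cldn5 (no filter 0.0102, coarser clusters 0.000459, shared barcodes left out 0.0443) and Ocln (shared barcodes left out 0.0142). The setting with members in clustering also put back the barrier lists. The cause of the changed signs was not tested.

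Leaving out 1 mouse moved capillary-venous values over -0.105 to 0.112 (Slc7a5), -0.21 to 0.203 (Slc38a5), -0.189 to 0.0475 (Abcb1a) and -0.0804 to 0.0766 (Abcg2). Arterial values ran over -0.00478 to 0.179 (Mfsd2a), -0.0706 to 0.0987 (Abcb1a), -0.0317 to 0.0614 (Abcg2), -0.0265 to 0.138 (Cldn5) and -0.0612 to 0.119 (Ocln). Mural values ran over -0.181 to 0.0932 (Slc7a5), -0.397 to 0.21 (Slc38a5), -0.0582 to 0.0987 (Mfsd2a), -0.156 to 0.00897 (Slco1c1), -0.126 to 0.0725 (Cldn5) and -0.192 to 0.0385 (Ocln). Estimates that kept their sign and moved by over 1.5 times were arterial Slc2a1 0.067 to 0.263, Slc38a5 -0.941 to -0.109, Slc7a5 -0.266 to -0.0793, Slco1a4 -0.258 to -0.0902; capillary-venous Cldn5 0.0659 to 0.201, Mfsd2a 0.0969 to 0.387, Slc2a1 0.113 to 0.345, Slco1a4 -0.205 to -0.0797, Slco1c1 -0.202 to -0.071; mural Abcb1a -0.222 to -0.00616, Abcg2 0.0581 to 0.244, Slc2a1 0.0339 to 0.143. Between arterial and capillary-venous cells, Mfsd2a ran over -0.0754 to 0.0407 and Slco1c1 over -0.0525 to 0.0272.

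In the labels, mice of the same sex and number in both groups share only a number. Their deviations correlated at -0.18 to 0.03, which does not settle whether such mice were processed together. With the replicate block 0 genes were called in each class, and Slc38a5 was at -0.0257 in capillary-venous and -0.048 in mural cells. The analysis without endothelial UMIs was not run, since only 5 mural and 3 choroid plexus cells lacked them. Slc38a5 rests on few counts in arterial cells (3 to 5 UMIs in 3 mice) and in the second pericyte cluster (4 UMIs). The shared barcode, hemoglobin cluster, second pericyte cluster and oligodendrocyte comparisons were chosen after seeing the data.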
